A study of Homo sapiens with 6 samples.

Results

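The proteasome genes were the 49 genes, of the 19934 genes counted in NCI-H1299 cells, whose symbols began with PSMA, PSMB, PSMC, PSMD, PSME, PSMF or PSMG followed by a digit. The proteasome is the protease that degrades ubiquitin-tagged proteins. Its 20S core stacks outer rings of alpha subunits, which form the gate, on inner rings of beta subunits, some of which cut the substrate, and its 19S cap holds an ATPase ring that unfolds the substrate and lid and base subunits that recognise it and remove ubiquitin. Interferon induces PSMB8, PSMB9 and PSMB10, which take the places of the cutting subunits PSMB5, PSMB6 and PSMB7 in the immunoproteasome, and PSME1 and PSME2, which form the PA28 cap. Peptides from these particles are loaded on MHC class I molecules. By role, the 49 symbols covered 7 alpha subunits, 7 constitutive beta subunits, 6 ATPases and 11 further subunits of the 19S cap, these 4 sets being the 31 constitutive subunits, then the 5 immunoproteasome subunits, 3 other activators or inhibitors, 7 assembly factors, 2 tissue-restricted subunits and PSMC3IP, which matched by symbol only and is a partner of meiotic recombinases, not a subunit.

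The RNA came from NCI-H1299, an established human lung cancer line that lacks p53, labelled wild type in genotype in all groups. Cells were transfected with control siRNA (si-Ctr), with siRNA against ZBTB11 (si-ZBTB11), a zinc finger protein, or with siRNA against SET (si-SET), a histone-binding oncoprotein that forms a complex with ZBTB11, for 4 days in all. Each group had 2 libraries, which the methods call biological replicates, and the comparisons ask how the transcript levels change upon depletion of each protein. The model is 1 cell line with transient knockdown, and the labels do not say which oligo against ZBTB11 a library received. Values are CPM, counts scaled to 1000000 counts a library with the scaling of edgeR over the 6 libraries, and differences between groups are log2 fold changes with the adjusted p of edgeR's quasi-likelihood test (Benjamini-Hochberg over all genes tested), called at 0.05.

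The libraries held between 16653115 and 17694522 counts, and the 49 genes took between 0.646% and 0.681% of them. With 2 libraries a group, groups that do not overlap are common. For si-SET against si-Ctr this held for 61.4% of all genes tested and 66% of the members. The shares were 57.1% and 59.6% for si-ZBTB11 against si-Ctr, and 56.6% and 63.8% between the knockdowns. The siRNA targets followed the labels. ZBTB11 stood at 52.9 and 64.2 CPM in si-Ctr, 47.8 and 41.6 CPM in si-SET and 31.8 and 32.4 CPM in si-ZBTB11, a log2 fold change of -0.86 ± 0.078 (SE, edgeR adjusted p = 4.45e-17) upon ZBTB11 knockdown and of -0.39 ± 0.075 (SE, edgeR adjusted p = 2.12e-05) upon SET knockdown, and the latter call was lost without si-Ctr replicate 2 (-0.24, edgeR adjusted p = 0.0501). SET stood at 666 and 658 CPM in si-Ctr, 58.3 and 60.6 CPM in si-SET and 663 and 670 CPM in si-ZBTB11, a log2 fold change of -3.48 ± 0.046 (SE, edgeR adjusted p = 3.08e-88) upon SET knockdown. The cells are labelled as lung adenocarcinoma. The epithelial keratins KRT8 and KRT18 were at 6083 to 8320 counts, but the surfactant genes SFTPB and SFTPC, NAPSA, EPCAM and CDH1 lay at 0 to 12 counts and NKX2-1 at 37 to 61. The 6 blood cell markers, among them PTPRC, CD3E and MS4A1, summed to 1 to 10 counts a library. The 9 epithelial markers summed to 937.8 and 947.1 CPM in si-Ctr, to 778.7 and 831.8 CPM in si-SET and to 765.5 and 786.1 CPM in si-ZBTB11. KRT8 and KRT18 held most of these sums. Of the 5 markers with enough counts to be tested in si-SET 3 were called lower (60%), beside 13.9% of all genes. In si-ZBTB11 it was 3 of 4 (75%), beside 10.5% of all genes. The mesenchymal marker VIM was at 1475 and 1483 CPM in si-Ctr, 1474 and 1434 CPM in si-SET and 1612 and 1607 CPM in si-ZBTB11, higher in si-ZBTB11 at 0.12 (edgeR adjusted p = 0.000993) and not called in si-SET at -0.02 (edgeR adjusted p = 0.638). The part of these shifts in the results that follow was not tested, and in bulk RNA fewer cells of a kind and less RNA per cell cannot be told apart.

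In control cells, 47 of the 49 genes were expressed, and their levels spread widely. PSMA8, the testis counterpart of PSMA7, had 0 counts in all 6 libraries, which allows up to 3 counts or 0.170 to 0.180 CPM, and PSMB11, the thymus beta subunit, had 1 count in si-SET replicate 2 and 0 elsewhere. Per kilobase of 1 transcript, the 31 constitutive subunits ranged from 4.77 CPM for PSMA6 to 385 CPM for PSMD8, a lid subunit, with a median of 75.95 CPM per kilobase. The 5 immunoproteasome subunits had a median of 34.89 CPM per kilobase and were, from high to low, PSME2 (95.2), PSME1 (82.3), PSMB8 (34.9), PSMB9 (14.5) and PSMB10 (7.54). The 3 cutting subunits that they replace were higher, at 135 CPM per kilobase for PSMB5, 116 for PSMB6 and 322 for PSMB7. The alpha subunits are needed in equal numbers in every particle, yet their RNA levels ran from 4.77 and 8.69 CPM per kilobase for PSMA6 and PSMA2 to 217 for PSMA7.

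Per kilobase of 1 transcript, the low end of that range went with overlapping annotation. In 9 of the 47 expressed members at least 10% of the transcript lay under exons of another gene in GENCODE, and the 6 members lowest per kilobase, PSMA6, PSMD9, PSMC3IP, PSMB10, PSMA2 and PSMA1, were all among these 9. The overlap covered 100% of PSMA2, 81.4% of PSMA6, 67% of PSMA1, 57.2% of PSMC3IP, 56.1% of PSMB10 and 28.8% of PSMD9. The other 3, PSMC1, PSMC5 and PSMD7, with 83.2%, 13.7% and 51.6% covered, stood at 43.8, 135 and 76 CPM per kilobase. The levels thus did not run in the order of the overlap. The lowest constitutive subunit without such an overlap was PSMD12 at 26.8. The ranking depends on the length used. With all annotated exons of a gene merged, PSMG4 (3.67), PSMG2 (3.78) and PSMB9 (4.43) lay below PSMB10 (4.53) and PSMA1 (5.6) in si-Ctr. None of PSMG4, PSMG2 and PSMB9 has such an overlap. By default featureCounts sets aside reads that lie on exons of more than 1 gene. The setting used and the strandedness are not given in the sources used here, so the levels of these 9 genes are uncertain, and the part of the overlap in them was not tested. A further 6 members, among them PSME2 and PSMD4, share at least 10% of their 31-base words with pseudogenes or other genes elsewhere.

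**Figure D1:**
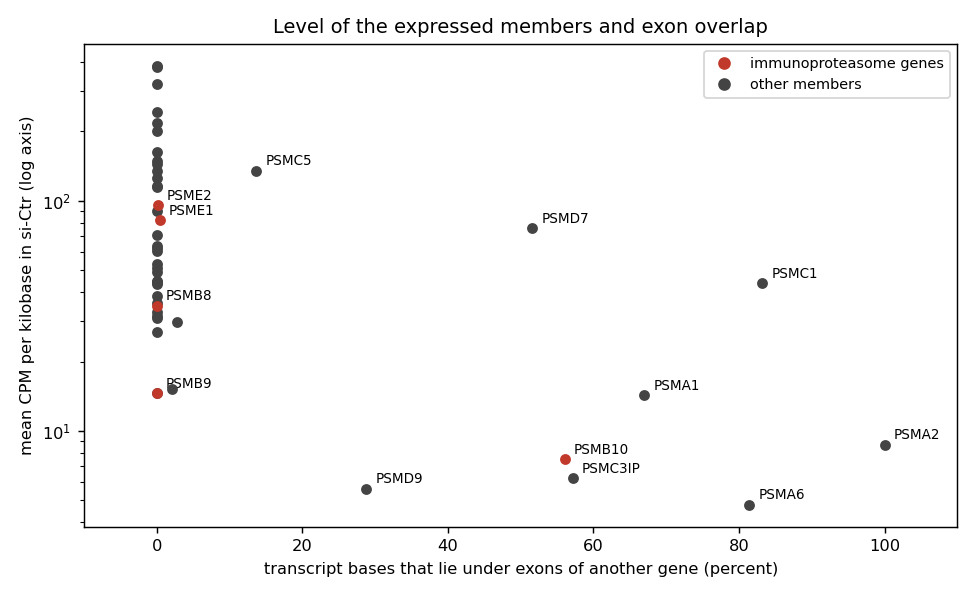
Each point is 1 of the 47 expressed members, with the percent of its transcript that lies under exons of another gene on the horizontal axis. Its mean level in the 2 si-Ctr libraries, in CPM per kilobase of 1 transcript on a log axis, is on the vertical axis. Immunoproteasome genes are red. PSMA6, PSMD9, PSMC3IP, PSMB10, PSMA2 and PSMA1 lie lowest, and all 6 overlap other genes.

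Upon SET knockdown 3 of the 5 immunoproteasome subunits fell. The constitutive counterparts PSMB5, PSMB6 and PSMB7, and PSME3, a relative of PSME1 and PSME2, did not pass the test in either direction. PSMB10, the immunoproteasome counterpart of PSMB7, was at 7.26 and 7.47 CPM in si-Ctr, 3.73 and 3.52 CPM in si-SET and 6.32 and 7.87 CPM in si-ZBTB11. Both si-SET libraries lay below all 4 others, and si-ZBTB11 overlapped si-Ctr. The log2 fold change in si-SET was -1.02 ± 0.21 (SE, edgeR adjusted p = 4.86e-05), which left the level at 49.2% of that in si-Ctr. It was the only member that also passed the criteria used in the study, a change of more than 1 log2 unit at an unadjusted p under 0.05. Of the 13599 genes tested 2.15% did so. Without si-SET replicate 2 (-0.98) or si-Ctr replicate 2 (-0.999) its fold change no longer reached that limit. PSMB10 rests on 60 to 132 counts a library, and 56.1% of its transcript lies under exons of another gene.

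PSMB9, the counterpart of PSMB6, was at 14.8 and 14.8 CPM in si-Ctr, 8.53 and 8.28 CPM in si-SET and 10.9 and 11.5 CPM in si-ZBTB11. The 3 groups did not overlap, with si-SET lowest and si-Ctr highest. It fell by 0.81 on the log2 scale in si-SET, with an SE of 0.14 (edgeR adjusted p = 1.6e-06). PSME1, the alpha chain of PA28, was at 79.2 and 79.7 CPM in si-Ctr, 59 and 66.9 CPM in si-SET and 70.8 and 66.2 CPM in si-ZBTB11. Its si-SET libraries also lay below both control libraries, with a log2 fold change of -0.34 ± 0.063 (SE, edgeR adjusted p = 1.13e-05). These 3 calls held under all 12 alternatives of test, scaling, filter, fit, block and left-out library.

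The other two immunoproteasome subunits had smaller differences that did not pass. PSMB8, the counterpart of PSMB5, was at 38.6 and 39.9 CPM in si-Ctr, 34.9 and 33.5 CPM in si-SET and 41.8 and 36.2 CPM in si-ZBTB11, and its log2 fold change in si-SET was -0.20 ± 0.083 (SE, edgeR adjusted p = 0.0679). PSME2, the beta chain of PA28, was at 76.2 and 74.9 CPM in si-Ctr, 64.6 and 71.2 CPM in si-SET and 86.5 and 82.2 CPM in si-ZBTB11, with -0.15 ± 0.063 (SE, edgeR adjusted p = 0.0565). For both, the 2 si-SET libraries lay below the 2 of si-Ctr, while 61.4% of all genes tested had si-SET and si-Ctr libraries that did not overlap. PSME2 passed without si-SET replicate 2 (edgeR adjusted p = 0.0171) and on library size alone (0.044), and 44% of its 31-base words recur in other genes, its pseudogenes among them. In all, 0 of the 5 immunoproteasome subunits were called higher and 3 lower in si-SET, against 13.1% of all genes tested called higher and 13.9% lower, with a median log2 fold change of -0.34 for the 5 and 0.00 for all 13599 genes.

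The counterparts and PSME3 did not pass in si-SET. PSMB5, which carries the chymotrypsin-like activity, was at 141 and 141 CPM in si-Ctr, 144 and 138 CPM in si-SET and 136 and 129 CPM in si-ZBTB11, a log2 fold change of 0.00 ± 0.048 (SE, edgeR adjusted p = 0.974). PSMB6, which carries the caspase-like activity, was at 97.9 and 93.3 CPM in si-Ctr, 94.7 and 102 CPM in si-SET and 103 and 97.6 CPM in si-ZBTB11, and PSMB7, which carries the trypsin-like activity, at 322 and 311 CPM in si-Ctr, 300 and 300.5 CPM in si-SET and 335 and 324 CPM in si-ZBTB11. In si-SET their log2 fold changes were 0.04 ± 0.055 (SE, edgeR adjusted p = 0.661) and -0.08 ± 0.040 (SE, edgeR adjusted p = 0.151). PSME3, the nuclear relative of PA28, was at 143 and 141 CPM in si-Ctr, 148 and 152 CPM in si-SET and 154 and 145 CPM in si-ZBTB11, with 0.08 ± 0.047 (SE, edgeR adjusted p = 0.238). The si-SET libraries of PSMB5 and PSMB6 overlapped si-Ctr, those of PSMB7 lay slightly below and those of PSME3 slightly above.

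**Figure D2:**
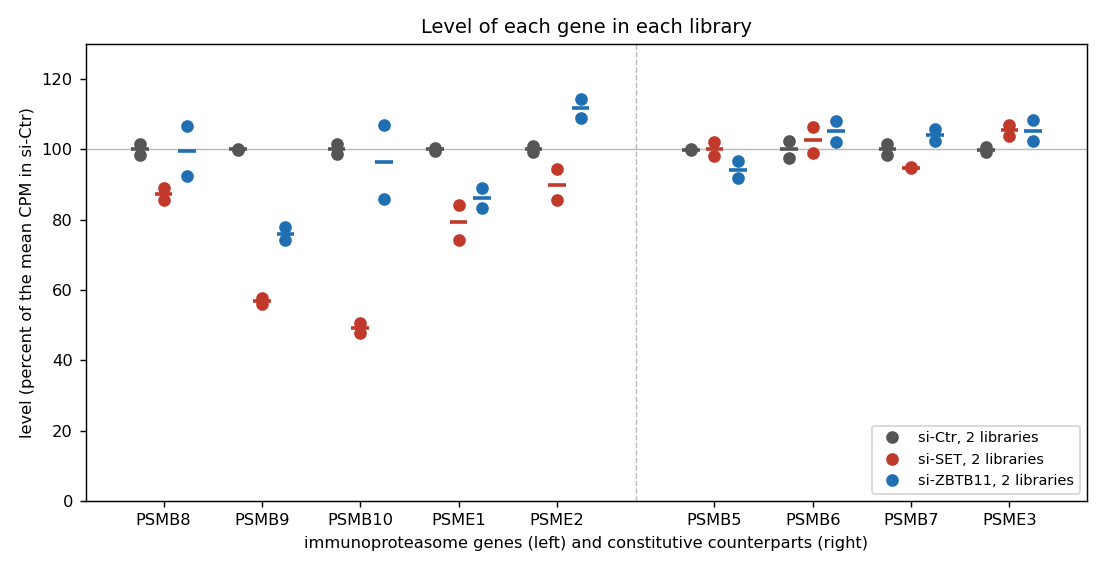
Level of the 5 immunoproteasome genes, of the constitutive counterparts PSMB5, PSMB6 and PSMB7 and of PSME3 in each of the 6 libraries. Levels are a percent of the mean CPM in si-Ctr, with points for libraries and short lines for group means. PSME3, drawn with the counterparts, is not among the constitutive subunits. In si-SET, PSMB10 averages 49.2% and PSMB9 56.9% of si-Ctr, while PSMB5, PSMB6, PSMB7 and PSME3 lie within 10% of it in si-SET and si-ZBTB11.

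The promoter windows of PSMB10, PSMB9 and PSME1, which fell upon SET knockdown, and of PSMC2, an ATPase gene which fell upon ZBTB11 knockdown, are shown with the matches to short motifs. The windows run 5′ to 3′ from 250 bases before to 50 bases after the RefSeq start (GRCh38.p14). Capitals mark a match on either strand to the gamma-activated site of interferon-gamma signalling (TTCNNNGAA), to the core of the site for interferon regulatory factors (AANNGAAA), to the antioxidant response element bound by NFE2L1 and NFE2L2 (TGACNNNGC), or to the ZBTB11 consensus named in the study (CCGGAAG or CAGGAAG). Matches to CCAAT are not capitalised.
PSMB10, chr16:67936801-67937100, minus strand: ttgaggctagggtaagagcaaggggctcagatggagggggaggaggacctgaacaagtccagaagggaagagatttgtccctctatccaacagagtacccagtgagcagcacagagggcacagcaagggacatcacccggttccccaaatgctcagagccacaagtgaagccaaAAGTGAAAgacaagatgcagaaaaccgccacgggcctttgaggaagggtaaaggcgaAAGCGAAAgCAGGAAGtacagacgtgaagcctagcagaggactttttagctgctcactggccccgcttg
PSMB9, chr6:32853942-32854241, plus strand: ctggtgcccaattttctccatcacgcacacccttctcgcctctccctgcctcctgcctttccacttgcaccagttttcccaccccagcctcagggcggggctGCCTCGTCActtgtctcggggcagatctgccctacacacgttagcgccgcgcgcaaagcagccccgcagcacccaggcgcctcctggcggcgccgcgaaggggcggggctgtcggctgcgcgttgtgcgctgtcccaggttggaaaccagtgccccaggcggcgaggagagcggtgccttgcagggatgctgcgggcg
PSME1, chr14:24135944-24136243, plus strand: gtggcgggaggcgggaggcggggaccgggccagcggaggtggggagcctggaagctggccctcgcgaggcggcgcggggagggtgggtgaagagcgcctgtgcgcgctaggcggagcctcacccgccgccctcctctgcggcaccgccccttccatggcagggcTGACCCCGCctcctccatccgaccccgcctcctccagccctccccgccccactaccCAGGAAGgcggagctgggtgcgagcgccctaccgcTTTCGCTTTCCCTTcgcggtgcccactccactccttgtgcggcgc
PSMC2, chr7:103347393-103347692, plus strand: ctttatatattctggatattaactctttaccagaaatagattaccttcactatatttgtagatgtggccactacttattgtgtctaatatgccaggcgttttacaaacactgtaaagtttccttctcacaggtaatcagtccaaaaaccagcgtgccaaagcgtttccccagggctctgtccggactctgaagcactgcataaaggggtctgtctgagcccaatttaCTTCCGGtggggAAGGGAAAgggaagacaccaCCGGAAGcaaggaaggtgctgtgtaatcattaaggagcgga

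In PSMB10, both longer capital runs are interferon regulatory factor matches and the last is a ZBTB11 consensus match, and in PSMB9 the single run is an antioxidant element. In PSME1 the runs are, in order, an antioxidant element, the ZBTB11 consensus and 2 overlapping interferon regulatory factor matches, and in PSMC2 the outer runs are ZBTB11 consensus matches around an interferon regulatory factor match. The PSMB9 start lies 488 bases from the nearest start of TAP1, the peptide transporter gene, on the opposite strand. The window of that TAP1 start held 2 overlapping interferon regulatory factor matches, while the PSMB9 window held none. Windows were found for 43 of the 49 symbols, 53 windows with alternative starts. PSMB1 and PSMG3 were among the symbols without a window. Of the other members called in si-ZBTB11 against si-Ctr, PSMC2, PSME1 and PSMD14 had a ZBTB11 consensus match. PSMC3, PSMA2, PSMB9 and PSME2, also called there, had no such match. The interferon regulatory factor core was in 4 of the 6 windows of immunoproteasome genes (66.7%), 21.9% of the 32 windows of constitutive subunits, 24.5% of the 53 and 22.8% of all 35116 windows. The antioxidant element was in 3 of the 6 (50%), 21.9% of the 32, 28.3% of the 53 and 13.3% of all windows. The ZBTB11 consensus was in 3 of the 6 (50%), 46.9%, 50.9% and 21.8% in the same order, the gamma-activated site in 1 of the 6 (16.7%), 15.6%, 15.1% and 7.66%, and the CCAAT box in 1 of the 6 (16.7%), 46.9%, 41.5% and 34.6%. With 6 windows, each match moves the share of the immunoproteasome genes widely. These are matches of letters, and no binding was measured in these files.

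In si-SET 7 of the 47 members tested were called higher (14.9%) and 4 lower (8.51%), beside 13.1% and 13.9% of all genes. Among the 31 constitutive subunits, 6 rose (19.4%) and 0 fell upon SET knockdown. Their median log2 fold change was 0.05. The median absolute log2 fold change was 0.087 for them and 0.15 for all genes. Their median SE was 0.0465, against 0.0906 for all genes, so smaller changes could be called in them. The changes were small. PSMC3, an ATPase, was at 139 and 138 CPM in si-Ctr, 172 and 170.3 CPM in si-SET and 170.4 and 159 CPM in si-ZBTB11. All knockdown libraries lay above both controls, and its log2 fold change in si-SET was 0.30 ± 0.046 (SE, edgeR adjusted p = 8.17e-08). PSMB1, a beta subunit without cutting activity, was at 340.4 and 336 CPM in si-Ctr, 398 and 395 CPM in si-SET and 376 and 350.2 CPM in si-ZBTB11, with 0.23 ± 0.039 (SE, edgeR adjusted p = 9.47e-07). Both si-SET libraries were the highest of the 6.

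PSMD13, a lid subunit, was at 95.8 and 96 CPM in si-Ctr, 114 and 111 CPM in si-SET and 100.3 and 96.8 CPM in si-ZBTB11, with 0.23 ± 0.053 (SE, edgeR adjusted p = 0.00041) in si-SET. PSMB4, another beta subunit without cutting activity, was at 224 and 223 CPM in si-Ctr, 255 and 250.1 CPM in si-SET and 237 and 239.8 CPM in si-ZBTB11, with 0.17 ± 0.042 (SE, edgeR adjusted p = 0.000624). PSMD1, the large scaffold of the 19S base, was at 214 and 202 CPM in si-Ctr, 238 and 225 CPM in si-SET and 210.3 and 201 CPM in si-ZBTB11, with 0.16 ± 0.043 (SE, edgeR adjusted p = 0.0033). In each of the 3 the si-SET libraries were the 2 highest. The sixth, the ATPase PSMC4, was at 347 and 358 CPM in si-Ctr, 388 and 391 CPM in si-SET and 378 and 364 CPM in si-ZBTB11, with 0.15 ± 0.039 (SE, edgeR adjusted p = 0.00203). The call of PSMD1 was lost without si-SET replicate 1 (edgeR adjusted p = 0.113) and without si-Ctr replicate 2 (0.167), and that of PSMC4 without si-Ctr replicate 1 (0.0922).

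By part of the particle, si-SET called 0 of 7 alpha subunits, 2 of 7 beta subunits, 2 of 6 ATPases and 2 of 11 other cap subunits higher, beside 13.1% of all genes, and the sets are too small for these counts to set one apart from another. The alpha subunits had a median log2 fold change of -0.08 and the ATPases of 0.13, and 5 of the 6 ATPases had positive signs. The exception was PSMC2 at -0.0021. Outside the core and cap, PSMF1, the inhibitor PI31, had a log2 fold change of 0.13 ± 0.050 (SE, edgeR adjusted p = 0.0382), which did not pass without si-SET replicate 1 (0.31), si-Ctr replicate 1 (0.233) or si-Ctr replicate 2 (0.116). PSMD5, a chaperone that holds the ATPase ring during assembly, was at 122 and 122 CPM in si-Ctr, 111 and 106 CPM in si-SET and 120 and 124 CPM in si-ZBTB11. It fell by 0.17 in si-SET (edgeR adjusted p = 0.00908), and the call was lost without si-SET replicate 2 (0.0948), si-Ctr replicate 1 (0.0777) or si-Ctr replicate 2 (0.0628). The other 6 assembly factors and PSME3 and PSME4 did not pass. With DESeq2 the si-SET calls of PSMD5 and PSMF1 were lost as well, with adjusted p of 0.0862 and 0.209.

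**Figure D3:**
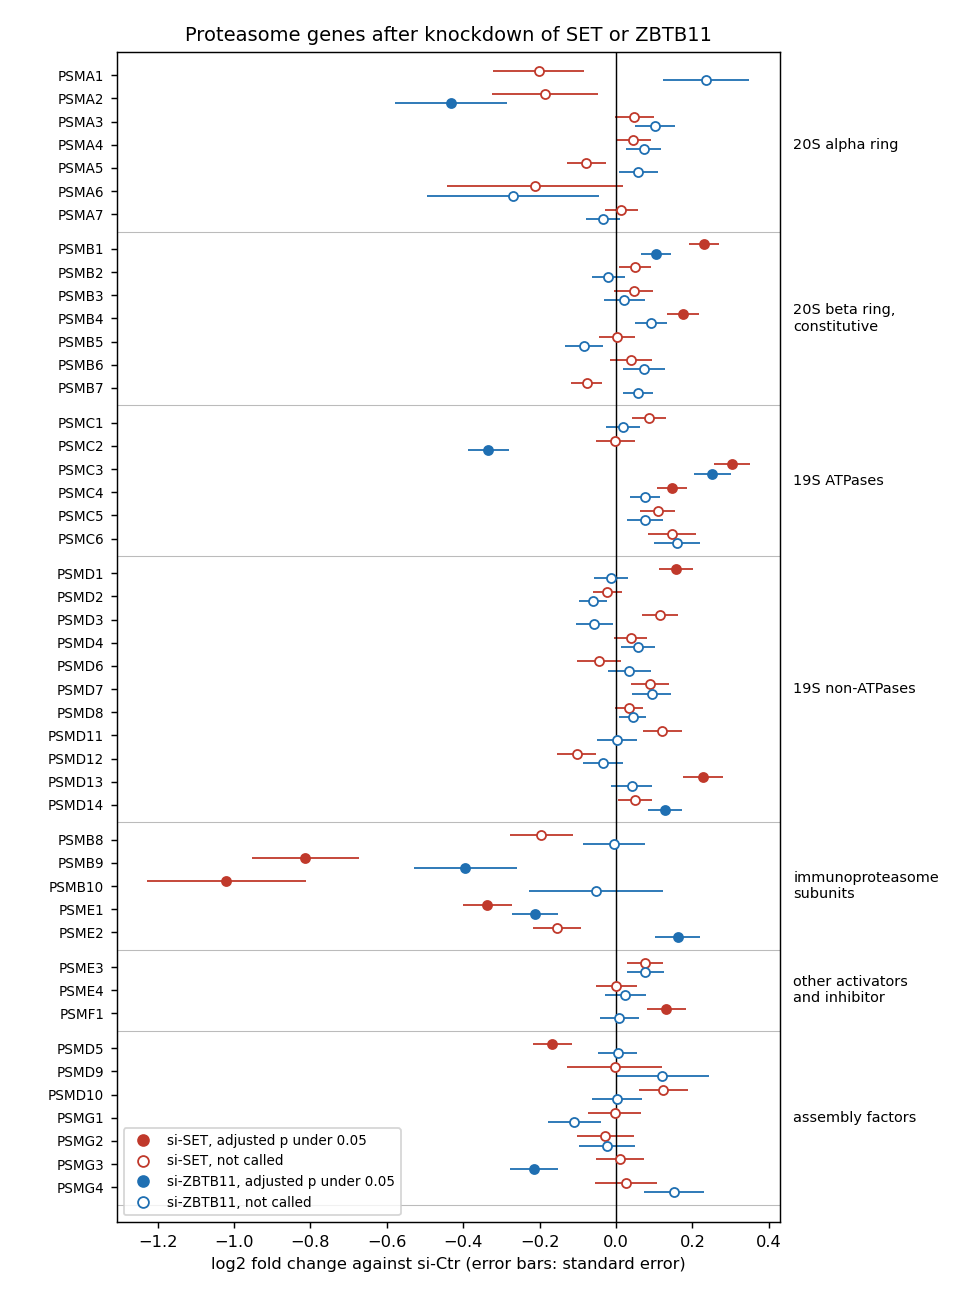
Log2 fold change against si-Ctr of the 46 expressed members with a role in the proteasome, ordered by role, with red points for si-SET and blue points for si-ZBTB11, standard errors as bars, and filled points where the edgeR adjusted p is under 0.05. PSMB10 and PSMB9 in si-SET lie farthest from 0, at -1.02 and -0.81, and the 31 constitutive subunits lie between -0.43 and 0.30.

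Upon ZBTB11 knockdown 9 members were called, and the immunoproteasome subunits were called in both directions. Of the 47 members tested 4 were called higher (8.51%) and 5 lower (10.6%), beside 9.94% and 10.5% of all 13534 genes tested, so the shares of members called were near those of all genes. By the criteria of the study 0 of the 47 passed, beside 1.57% of all genes. Of the 5 immunoproteasome subunits, PSMB9 and PSME1 were called lower and PSME2 higher, and the median log2 fold change was -0.05.

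PSMB9 fell to 76% of its control level, a log2 fold change of -0.39 ± 0.13 (SE, edgeR adjusted p = 0.0246). Both si-ZBTB11 libraries lay between si-SET and si-Ctr. This call was lost without si-ZBTB11 replicate 1 (edgeR adjusted p = 0.115), without si-Ctr replicate 1 (0.0993) or si-Ctr replicate 2 (0.093) and with DESeq2 (0.204). PSME1 had a log2 fold change of -0.21 ± 0.061 (SE, edgeR adjusted p = 0.0057), lost without si-ZBTB11 replicate 2 (0.108) and with DESeq2 (0.088). PSME2, by contrast, was highest in the si-ZBTB11 libraries, with 0.16 ± 0.059 (SE, edgeR adjusted p = 0.038). Its call was lost in 6 of 12 alternatives, among them without si-ZBTB11 replicate 1 (0.268), si-Ctr replicate 1 (0.105) and si-Ctr replicate 2 (0.193). PSMB10 and PSMB8 did not pass, at -0.05 ± 0.18 (SE, edgeR adjusted p = 0.882) and -0.01 ± 0.080 (SE, edgeR adjusted p = 0.978). Their si-ZBTB11 libraries lay on both sides of si-Ctr.

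Of the 31 constitutive subunits 3 were called higher (9.68%) and 2 lower (6.45%) in si-ZBTB11, beside 9.94% and 10.5% of all genes. Their median log2 fold change was 0.04. PSMC2, an ATPase, was at 119 and 122 CPM in si-Ctr, 126 and 115 CPM in si-SET and 97.8 and 93.1 CPM in si-ZBTB11. Both si-ZBTB11 libraries lay below the 4 others, while si-SET spanned si-Ctr, and the log2 fold change was -0.33 ± 0.053 (SE, edgeR adjusted p = 2.87e-07). It held under all 12 alternatives. PSMC3, of the same ATPase ring, rose, with 0.25 ± 0.048 (SE, edgeR adjusted p = 1.58e-05), and also held under all 12.

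PSMA2, an alpha subunit, was at 11.6 and 13.3 CPM in si-Ctr, 10.8 and 11.1 CPM in si-SET and 9.91 and 8.52 CPM in si-ZBTB11, and its log2 fold change in si-ZBTB11 was -0.43 ± 0.15 (SE, edgeR adjusted p = 0.0243). Its counts, 143 to 223 a library, come from a transcript that lies wholly under exons of another gene, and the call was lost without si-ZBTB11 replicate 2 (0.188) and si-Ctr replicate 2 (0.242). PSMD14, the lid deubiquitinase, was at 199 and 195 CPM in si-Ctr, 207 and 201 CPM in si-SET and 219 and 210.5 CPM in si-ZBTB11, with 0.13 (edgeR adjusted p = 0.0259). PSMB1 had 0.11 (edgeR adjusted p = 0.0437). Without si-ZBTB11 replicate 1 the adjusted p was 0.217 for PSMD14 and 0.516 for PSMB1, without si-Ctr replicate 1 0.0749 and 0.122, and without si-Ctr replicate 2 0.206 and 0.243. PSMG3, a chaperone of alpha ring assembly, was at 74.4 and 71.7 CPM in si-Ctr, 76 and 71.2 CPM in si-SET and 66.9 and 58.9 CPM in si-ZBTB11. It fell by 0.21 (edgeR adjusted p = 0.00805), and the call was lost without si-ZBTB11 replicate 2 (0.273) and si-Ctr replicate 1 (0.0956). The counterparts PSMB5, PSMB6 and PSMB7, and PSME3, did not pass, with log2 fold changes of -0.08, 0.07, 0.06 and 0.08 with SEs of 0.049, 0.055, 0.040 and 0.048. With DESeq2 the calls of PSME2, PSMA2, PSMB1, PSMD14 and PSMG3 were lost, with adjusted p of 0.229, 0.224, 0.16, 0.121 and 0.13.

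Both knockdowns share the 2 control libraries, so they were also compared directly, si-ZBTB11 against si-SET. The depletion was unequal. SET was left at 8.98% of its si-Ctr level in si-SET. ZBTB11 was left at 54.8% in si-ZBTB11 and stood at 76.3% in si-SET. The part of this inequality in the differences was not tested. Of the 47 members 6 were higher and 6 lower in si-ZBTB11, beside 9.61% and 8.58% of all 13549 genes tested, and 0 passed the criteria of the study, beside 1.36%. The immunoproteasome subunits were higher in si-ZBTB11 by sign in 5 of 5, with 3 called and a median log2 fold change of 0.31. PSMB10 differed most, by 0.97 ± 0.20 (SE, edgeR adjusted p = 0.000744), PSME2 by 0.31 ± 0.063 (SE, edgeR adjusted p = 0.00041) and PSMB9 by 0.42 ± 0.15 (SE, edgeR adjusted p = 0.0434). The PSMB9 call was lost in 6 of 12 alternatives, among them each of the 4 left-out libraries (edgeR adjusted p = 0.0783 and 0.171 without si-ZBTB11 replicates 1 and 2, 0.101 and 0.133 without si-SET replicates 1 and 2). PSMB8 and PSME1 did not pass, at 0.19 ± 0.084 (SE, edgeR adjusted p = 0.121) and 0.12 ± 0.068 (SE, edgeR adjusted p = 0.226), but PSMB8 did without si-ZBTB11 replicate 2 (0.0419) and PSME1 without si-SET replicate 2 (0.0434).

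Of the 31 constitutive subunits 2 were higher (6.45%) and 5 lower (16.1%) in si-ZBTB11 than in si-SET, beside 9.61% and 8.58% of all genes. Their median log2 fold change was -0.04. The most negative difference was that of PSMC2 at -0.33 ± 0.056 (SE, edgeR adjusted p = 4.38e-05). PSMA1, an alpha subunit, was at 17.4 and 16.7 CPM in si-Ctr, 15.8 and 13.9 CPM in si-SET and 20.2 and 20.02 CPM in si-ZBTB11, and differed by 0.44 ± 0.12 (SE, edgeR adjusted p = 0.00764), lost without si-SET replicate 2 (0.0896). PSMB7 was higher by 0.13 (edgeR adjusted p = 0.024), and PSMD13, PSMD3, PSMD1 and PSMB1 were lower, at -0.19, -0.17, -0.17 and -0.13. PSMD3, a lid subunit, was at 152 and 152 CPM in si-Ctr, 164 and 166 CPM in si-SET and 150.3 and 142 CPM in si-ZBTB11. The assembly factors PSMD5 and PSMG3 differed by 0.17 (edgeR adjusted p = 0.0213) and -0.23 (edgeR adjusted p = 0.0159). Each of these 7 calls was lost without at least 1 library, with adjusted p up to 0.169 for PSMB7 (without si-ZBTB11 replicate 1), 0.109 for PSMD13, 0.164 for PSMD3, 0.418 for PSMB1, 0.151 for PSMD5 and 0.308 for PSMG3 (without si-ZBTB11 replicate 2) and 0.131 for PSMD1 (without si-SET replicate 1). Calls were also lost at lower adjusted p without si-SET replicate 1 for PSMB7, PSMB1, PSMD13 and PSMG3, without si-SET replicate 2 for PSMB7, PSMB1 and PSMD5, and without si-ZBTB11 replicate 2 for PSMD1. With DESeq2 the calls of PSMA1, PSMB1, PSMD13, PSMD3, PSMD5 and PSMG3 were lost, with adjusted p from 0.0621 for PSMD3 to 0.124 for PSMG3.

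The immunoproteasome genes were also set against the subunit they replace, or against PSME3, in each library. Per kilobase of the canonical transcript, PSMB8, PSMB9 and PSMB10 lay below the subunits they replace, and PSME1 and PSME2 above PSME3, a relative that they do not replace. PSMB8 was at 25.8% of PSMB5 in si-Ctr, 22.5% in si-SET and 27.2% in si-ZBTB11. PSMB9 was at 12.5% of PSMB6 in si-Ctr, 6.94% in si-SET and 9.05% in si-ZBTB11. Its log2 ratios were -3.03 and -2.96 in si-Ctr, -3.78 and -3.92 in si-SET and -3.54 and -3.39 in si-ZBTB11, so that the 3 groups were apart.

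PSMB10 was at 2.34%, 1.22% and 2.16% of PSMB7 in the same order, with log2 ratios of -5.46 and -5.37 in si-Ctr, -6.32 and -6.40 in si-SET and -5.72 and -5.35 in si-ZBTB11. The si-SET libraries lay apart from the rest, and si-ZBTB11 spanned the controls. PSME1 was at 184% of PSME3 in si-Ctr, 138% in si-SET and 151% in si-ZBTB11, and PSME2 at 213%, 182% and 226%. In all 5 pairs the si-SET ratios were below the control ratios, but 2 libraries a group cannot give an exact permutation p below 0.333, so no test was made. Of all genes tested, 61.4% had si-SET and si-Ctr levels that did not overlap. The ratios restate the counts given above, and the pairs of PSME1 and PSME2 share PSME3. The length used matters for the level. With all annotated exons of a gene merged, the mean log2 ratio in si-Ctr moved from -1.95 to -3.01 for PSMB8 over PSMB5, from -3.00 to -3.90 for PSMB9 over PSMB6 and from 1.09 to -0.39 for PSME2 over PSME3, so that PSME2 was then below PSME3, while the differences between groups stay as they are.

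**Figure D4:**
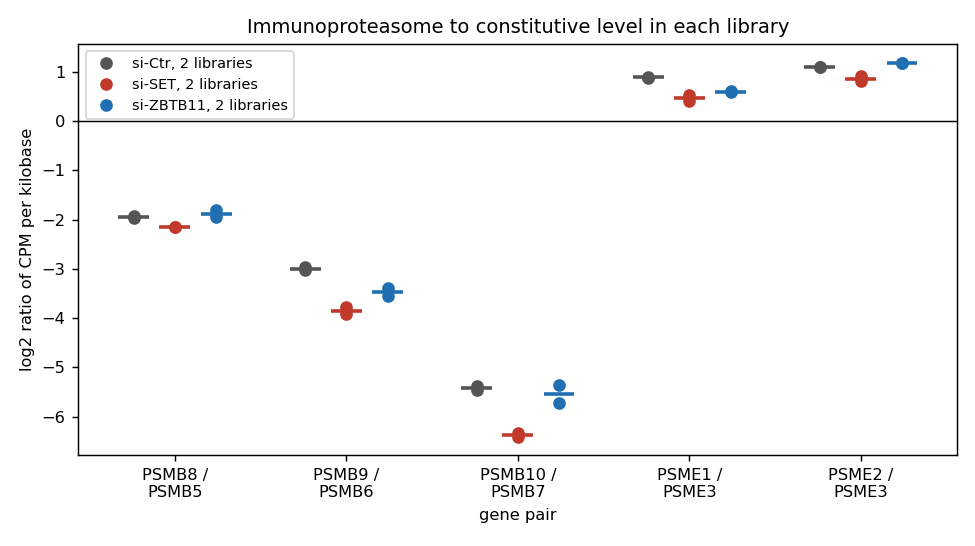
Log2 ratio of CPM per kilobase, immunoproteasome gene over the subunit it replaces or over PSME3, for 5 pairs in each of the 6 libraries, with short lines for group means. The si-SET points lie below the si-Ctr points in every pair, with differences of -0.95 for PSMB10 over PSMB7 and -0.85 for PSMB9 over PSMB6 on the mean of the log2 ratio. The pairs of PSME1 and PSME2 share PSME3, and no test was made.

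Other genes of the same pathways were read from 4 lists. The counts for these lists stand beside shares over all genes of 13.1% called higher and 13.9% lower in si-SET, and of 9.94% and 10.5% in si-ZBTB11. Of 15 genes of interferon signalling and class I peptide supply 0 rose and 10 fell in si-SET (66.7% lower, median log2 fold change -0.31), and 0 rose and 7 fell in si-ZBTB11 (46.7% lower, median -0.13). NLRC5, the transactivator of class I genes, was at 21.9 and 23.1 CPM in si-Ctr, 12.8 and 16 CPM in si-SET and 18.3 and 18.1 CPM in si-ZBTB11. The groups did not overlap, and NLRC5 had -0.65 ± 0.11 (SE, edgeR adjusted p = 2.98e-06) in si-SET and -0.31 ± 0.11 (SE, edgeR adjusted p = 0.0314) in si-ZBTB11. The latter was lost with DESeq2 (0.23) and with each of the 4 libraries left out, with adjusted p of 0.0918 and 0.101 without si-ZBTB11 replicates 1 and 2 and 0.0684 and 0.21 without si-Ctr replicates 1 and 2.

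IRF1, an interferon regulatory factor, was at 24.7 and 28.7 CPM in si-Ctr, 19.7 and 21.6 CPM in si-SET and 19.9 and 19.96 CPM in si-ZBTB11, with -0.37 ± 0.10 (SE, edgeR adjusted p = 0.00313) in si-SET and -0.42 ± 0.10 (SE, edgeR adjusted p = 0.000989) in si-ZBTB11. The first call was lost with DESeq2 (0.0809), without si-SET replicate 1 (0.0502) and si-Ctr replicate 2 (0.155), the second without si-Ctr replicate 2 (0.108). TAPBP, the class I peptide-loading chaperone, had -0.31 (edgeR adjusted p = 4.35e-07) in si-ZBTB11 and -0.35 (edgeR adjusted p = 1.73e-08) in si-SET. The si-SET call of TAPBP was not run through the alternatives. TAP1, named because its start faces that of PSMB9 and after its values were seen, had -0.34 (edgeR adjusted p = 0.00111) in si-SET and -0.25 (edgeR adjusted p = 0.0194) in si-ZBTB11, the latter lost with DESeq2 (0.178) and without si-ZBTB11 replicate 1 (0.165), si-Ctr replicate 1 (0.0655) or si-Ctr replicate 2 (0.122). In the direct comparison 3 of the 15 were higher in si-ZBTB11 (20%, beside 9.61% of all genes). Among them were the peptide trimmer ERAP1 (0.23 (edgeR adjusted p = 0.00495)) and the class I light chain B2M (0.15 (edgeR adjusted p = 0.00555)). The ERAP1 call was lost without si-ZBTB11 replicate 2.

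Of 7 genes of the transcription control of proteasome genes only NFE2L1, the factor that raises proteasome gene transcription when proteasome capacity is short, was called. It was at 252 and 254 CPM in si-Ctr, 314 and 317 CPM in si-SET and 320.2 and 320.4 CPM in si-ZBTB11. All 4 knockdown libraries lay above both controls, with 0.32 ± 0.041 (SE, edgeR adjusted p = 2.56e-10) in si-SET and 0.34 ± 0.040 (SE, edgeR adjusted p = 1.83e-11) in si-ZBTB11. Among 11 proteasome parts and helpers without a PSM symbol 2 rose and 0 fell in si-SET (18.2% higher, beside 13.1% of all genes), and 1 rose and 1 fell in si-ZBTB11 (9.09% each way, beside 9.94% and 10.5%), so these shares were near those of all genes. SEM1, a small lid subunit, had 0.27 (edgeR adjusted p = 2.52e-05) and 0.19 (edgeR adjusted p = 0.00323), the latter lost without si-ZBTB11 replicate 1 (0.0658) or si-Ctr replicate 2 (0.369) and both with DESeq2 (0.217 in si-SET). POMP, the maturation factor of the 20S core, was at 112 and 109 CPM in si-Ctr, 123 and 110.5 CPM in si-SET and 97.1 and 94 CPM in si-ZBTB11. It was lower in si-ZBTB11 than in si-Ctr at -0.21 ± 0.054 (SE, edgeR adjusted p = 0.00162), a call not run through the alternatives. POMP was also lower in si-ZBTB11 than in si-SET, at -0.29 ± 0.057 (SE, edgeR adjusted p = 0.00037).

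Of 14 genes of ubiquitin supply and delivery 3 rose and 0 fell in si-SET (21.4% higher, beside 13.1% of all genes) and 4 rose and 0 fell in si-ZBTB11 (28.6% higher, beside 9.94%). UBQLN1, a shuttle that brings ubiquitin-tagged proteins to the proteasome, was lower in si-ZBTB11 than in si-SET, at -0.14 (edgeR adjusted p = 0.0162), lost without si-ZBTB11 replicate 2 (0.127) and si-SET replicate 2 (0.0643).

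**Figure D5:**
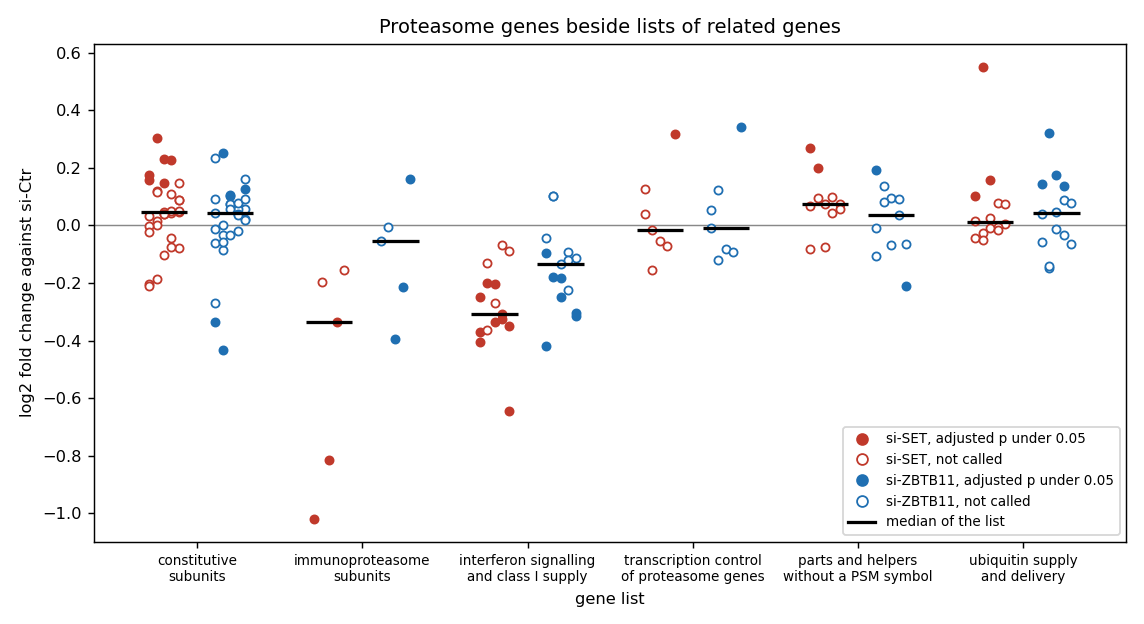
Log2 fold change against si-Ctr of the 31 constitutive and 5 immunoproteasome subunits beside 4 lists of related genes, with red points for si-SET, blue points for si-ZBTB11, filled points for an edgeR adjusted p under 0.05 and black lines for list medians. In si-SET the medians of the immunoproteasome and interferon lists are -0.34 and -0.31 and that of the constitutive subunits 0.05.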

How the data were processed

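Total RNA of NCI-H1299 cells was sequenced as paired-end reads from 6 libraries, 2 per group. The authors aligned the reads to hg38 with HISAT2 2.0.5 and counted them per gene with featureCounts 1.5.0-p3, and the deposited values are these raw counts. The annotation, the strand setting and the treatment of reads shared by genes are not given in the sources used here. Counts were fitted with edgeR 4.0.16 in R 4.3.3 (TMM scaling, filterByExpr, glmQLFit with the legacy method, glmQLFTest, two-sided), for the 2 groups of each comparison only, over all genes, with Benjamini-Hochberg adjusted p called at 0.05. The smallest depth, 16653115 counts, gives a floor of 3 counts or 0.180 CPM, which covers counting error only. Replicates of a group differed by more than sampling noise (chi-square per degree of freedom 2.34 to 2.71). Lengths and positions came from GENCODE 44 on hg38, with 1 canonical transcript a gene, and promoters from RefSeq.

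The members and lists were chosen with earlier results of these data known. Named with values were the 5 immunoproteasome subunits, their counterparts PSMB5, PSMB6 and PSMB7, PSME3, up to 5 called members with the highest and the lowest fold change in each comparison, up to 3 called genes a direction of the lists outside the members, and the siRNA targets. Some genes that this rule names outside the members are not reported here. Alternatives were DESeq2 1.42.0, DESeq2 size factors or library size alone in edgeR, filters that kept genes with 1 count, or with 10 in each library, a single fit of the 6 libraries, the newer edgeR method, a replicate block, each library left out, the criteria of the study and merged exon lengths. The scripts were tested on simulated data.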

Additional observations from a re-analysis of the deposited data

How the results depend on the processing

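No direction of a called result reversed in any alternative run. DESeq2 called 1296 genes in si-ZBTB11, 1771 in si-SET and 1217 between the knockdowns, and with it 1 member was higher and 1 lower in si-ZBTB11, and 3 were higher and 2 lower between the knockdowns. Members called higher in si-ZBTB11 numbered 1 on library size alone and 2 with all 6 libraries in one fit. With a replicate block 11 members were called higher in si-SET, PSMB8 (adjusted p = 0.0426) and PSME2 (0.031) passed as lower there, and all other counts of calls stayed within 1.5 times. The deviations of same-numbered libraries from their group means had correlations of 0.0114 to 0.0257 across genes. With 2 libraries a group, this cannot tell whether same-numbered libraries were handled together. The criteria of the study passed 213 genes in si-ZBTB11, with 0 members higher and 0 lower, 293 in si-SET, with 0 and 1, and 184 between the knockdowns, with 0 and 0. With 1 library left out, where a lone library is assumed to vary like the other group, genes called ranged from 1794 to 2197 in si-ZBTB11 and from 2411 to 2936 in si-SET. Members called higher and lower ranged from 1 to 5 and from 2 to 4 in si-ZBTB11, and from 3 to 5 and from 1 to 7 between the knockdowns. The immunoproteasome median ranged from -0.17 to -0.033 in si-ZBTB11 and from -0.43 to -0.25 in si-SET, and the constitutive median between the knockdowns from -0.087 to 0.0027, where it was positive without si-ZBTB11 replicate 2. With merged exon lengths the mean log2 ratios in si-Ctr, si-SET and si-ZBTB11 were -3.01, -3.21 and -2.94 for PSMB8 over PSMB5, -3.90, -4.75 and -4.37 for PSMB9 over PSMB6, 0.70, 0.28 and 0.41 for PSME1 over PSME3 and -0.39, -0.62 and -0.30 for PSME2 over PSME3, and -5.29 and -6.24 in si-Ctr and si-SET for PSMB10 over PSMB7. Without the members whose exons overlap other genes, an alternative chosen after seeing the data, the immunoproteasome median was -0.27 in si-SET, -0.11 in si-ZBTB11 and 0.25 between the knockdowns. The causes of these shifts were not tested. Depth limits PSMB10, PSMB9 and PSMA6, which rest on few counts, and 2 libraries a group limit every test.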
